A study of Mus musculus with 14 samples.

Results

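The 9 genes described here, Vwf, F8, F3, Tfpi, Thbd, Procr, Plat, Plau and Plaur, encode proteins of blood clotting and clot removal that are made in the vessel wall. They were taken by exact gene name from the deposited table of 35275 genes, and each of the 9 was found once. RNA had been sequenced from carotid arteries of C57BL/6 mice, 10 weeks old and fed standard chow. The lumen of the right and left arteries was flushed with 150 µL of Qiazol, a lysis reagent, to collect an endothelial-enriched fraction, and the left-over artery gave a separate fraction. The flushed fraction had 4 littermate controls, titled Poldip2-floxed, and 4 endothelial knockouts, titled Poldip2-EC-/-. The left-over fraction had 2 libraries labelled as littermate controls, also titled Poldip2-floxed, and 4 labelled as smooth muscle knockouts, titled Poldip2-SMC-/-. The promoter that drives the deletion, and what the numbered repeats of a group stand for, are not given in the sources used here, so the p-values measure the spread between these 14 libraries, which may be technical.

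Clotting in a vessel wall starts when blood meets tissue factor, the product of F3, which binds factor VIIa, and tissue factor pathway inhibitor, from Tfpi, blocks that complex. Von Willebrand factor, from Vwf, tethers platelets and carries factor VIII, from F8, a cofactor that speeds the making of thrombin. Endothelium limits clotting with thrombomodulin, from Thbd, which turns thrombin into an activator of protein C, and with the endothelial protein C receptor, from Procr, which presents protein C to it. Clots are dissolved by plasmin, which tissue plasminogen activator (Plat) and urokinase (Plau) release from plasminogen, urokinase acting on its receptor at the cell surface (Plaur).

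Poldip2 was measured first, as the deleted gene. Values are CPM, library-scaled counts (TMM scaling over all 14 libraries), unless another unit is named. In the flushed fraction Poldip2 was 46.3, 43.7, 48.3 and 59.8 in controls 1 to 4 and 36.5, 24.7, 25.6 and 21.5 in endothelial knockouts 1 to 4. In the left-over fraction it was 27.4 and 23.5 in the libraries labelled control and 54.9, 51.6, 68.8 and 70.7 in those labelled knockout. The groups did not overlap in either fraction, but the left-over order went against the labels. The log2 fold change of labelled knockout over control was -0.89 in the flushed fraction (SE 0.16, edgeR adjusted p = 0.27, uncalled, and 2.2e-04 with DESeq2) and 1.29 in the left-over fraction (SE 0.20, edgeR adjusted p = 0.00886, and 0.11 without labelled control 2). Of the 4 left-over libraries labelled knockout, 3 carry the code number of a flushed control. In the authors' deposited table the FPKM mean headed as smooth muscle control equalled the average of those 4 libraries, within a relative tolerance of 1e-06, for all 14805 genes averaging at least 1 FPKM. The mean headed as smooth muscle knockout equalled that of the 2 libraries labelled control for only 1 of 14253 such genes. Left-over groups are therefore called labelled control and labelled knockout, and each direction between them would be the opposite were their labels exchanged. In that case the fraction test below, of flushed controls against left-over labelled controls, would also compare unlike genotypes.

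Library depth ran from 15019891 to 23287155 counts. The endothelial and adventitial fibroblast marker lists followed the fractions. The summed CPM of 10 endothelial markers was 11415 to 13557 in the flushed libraries and 214 to 898 in the left-over libraries, and that of 10 adventitial fibroblast markers was 476 to 3154 and 24418 to 34125. Not every list sorted in this way. Lymphatic and venous endothelial markers summed to 93.6 to 135 CPM in flushed controls and 212 to 221 in left-over labelled controls. Red cell markers overlapped, at 330 to 874 and 370 to 763 CPM in the same groups. No listed marker of any cell type was at 0 counts in every library of a group. Flushed control 3 (3154) and endothelial knockout 1 (2794) stood highest in fibroblast markers in their fraction, and the other 6 flushed libraries had 476 to 1716. In bulk RNA, fewer cells of a type and less RNA per cell cannot be told apart.

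Most members, like most genes tested, differed between the fractions. The genes of von Willebrand factor, factor VIII, the protein C pair and the urokinase receptor were higher in the flushed lining, those of tissue factor and its inhibitor were higher in the left-over wall, and both plasminogen activators were uncalled. In the test of flushed controls against left-over labelled controls (edgeR, a gene being called at a Benjamini-Hochberg adjusted p under 0.05 over all genes), 7 of the 9 members were called, 5 higher and 2 lower in the flushed fraction. Of all 18484 genes tested, 65.7% were called, 34.6% higher and 31.1% lower. The same 7 members had no overlap between these groups, as did 76.4% of all genes. How many of all genes also separated all flushed from all left-over libraries, as some members did, was not counted. The median log2 fold change was 1.45 over the 9 members and -0.05 over all genes. Scaling by library size alone moved the median of all genes to -0.38 and the split of calls from 6393 higher and 5756 lower to 4650 and 7597. The same 5 members were higher and the same 2 lower under that scaling.

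**Figure D1:**
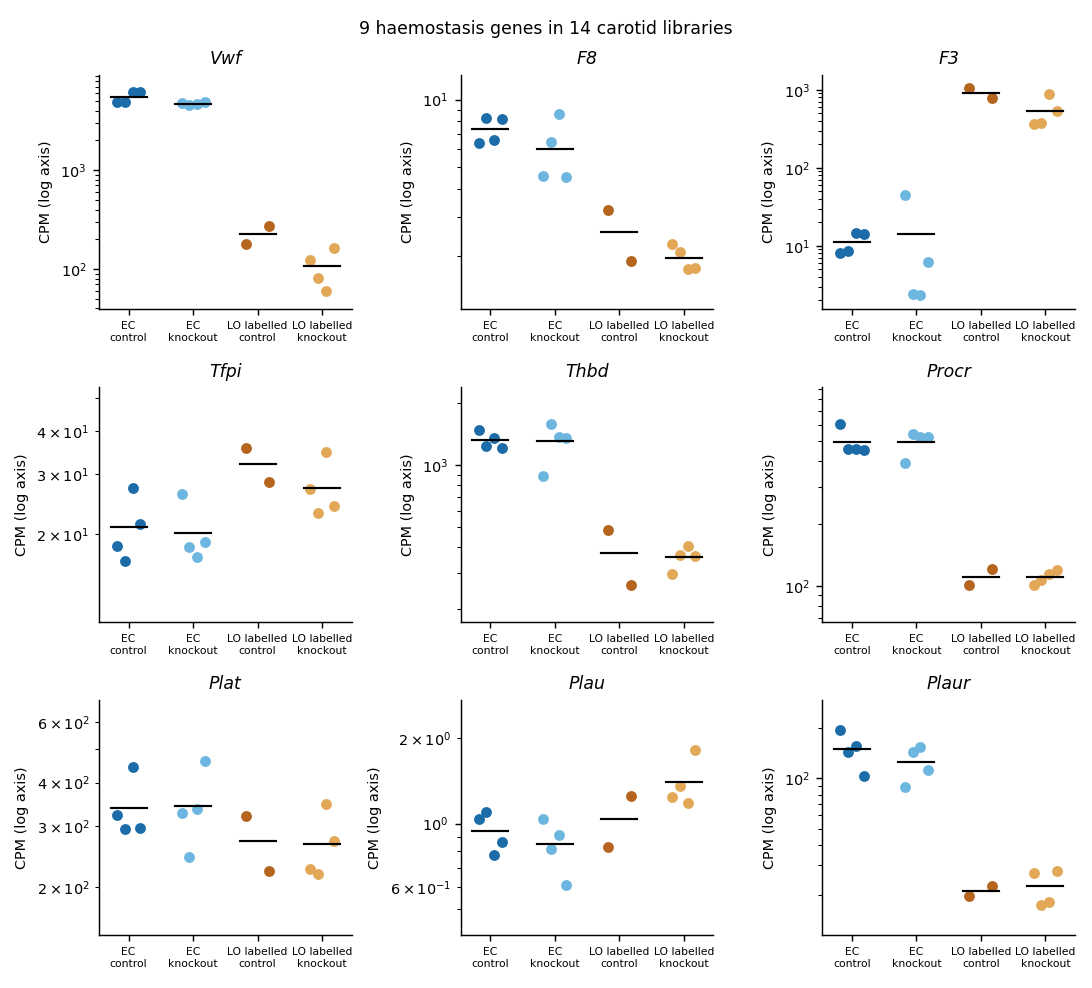
CPM of each gene on a log axis in the 14 libraries, by group; points are libraries and the black line is the group mean (n = 4, 4, 2 and 4; EC, flushed endothelial fraction; LO, left-over artery). Vwf, Thbd, Procr, Plaur and F8 lie higher in both flushed groups and F3 in both left-over groups. Flushed controls and left-over labelled controls overlap for Plat and Plau.

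RefSeq promoter sequences (GRCm38.p6, 250 bases before to 50 after the start) were on hand for 5 of the 9 members, with 2 starts for Tfpi. Those of F3, Procr and Plaur are shown because F3 marks the left-over wall and the other two the flushed lining; Vwf, Thbd, Plat and Plau had no entry. All 3 lie on the + strand, at chr3:121723287-121723586, chr2:155750967-155751266 and chr7:24462233-24462532. Capitals mark matches on either strand to 7 short motifs, whose letters stand beside the counts that follow.
F3: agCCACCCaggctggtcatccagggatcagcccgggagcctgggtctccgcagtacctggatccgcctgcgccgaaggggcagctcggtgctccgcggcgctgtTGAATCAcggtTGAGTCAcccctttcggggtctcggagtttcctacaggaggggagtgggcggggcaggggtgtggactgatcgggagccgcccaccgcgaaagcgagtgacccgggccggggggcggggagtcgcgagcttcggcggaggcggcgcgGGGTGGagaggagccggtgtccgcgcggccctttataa
Procr: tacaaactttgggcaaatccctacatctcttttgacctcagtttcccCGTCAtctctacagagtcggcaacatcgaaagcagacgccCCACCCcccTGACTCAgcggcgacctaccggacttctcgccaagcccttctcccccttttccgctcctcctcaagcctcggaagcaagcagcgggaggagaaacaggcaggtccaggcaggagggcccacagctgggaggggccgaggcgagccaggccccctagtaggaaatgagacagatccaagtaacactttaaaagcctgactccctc
Plaur: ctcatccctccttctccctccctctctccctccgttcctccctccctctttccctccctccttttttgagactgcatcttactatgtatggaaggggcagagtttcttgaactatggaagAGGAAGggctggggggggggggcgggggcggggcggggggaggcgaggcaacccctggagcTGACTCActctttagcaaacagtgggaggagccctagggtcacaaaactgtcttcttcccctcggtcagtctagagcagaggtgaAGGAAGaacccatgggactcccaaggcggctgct
The AP-1 motif, TGANTCA, occurred 2 times in the F3 window and once each in those of Procr and Plaur, and 7.8% of all 32851 promoters in the table held a match. A KLF motif, spelled CCACCC, was found in F3 and Procr and in 31.5% of all promoters. An ETS motif, spelled AGGAAG, was found 2 times in Plaur and in 35.4% of all promoters, and the short CRE motif TGACG once in Procr and in 20.8%. The other motifs searched had no match in these 3 windows, but some had in Tfpi. The first was the E-box, spelled CACGTG and found in 7.2% of all promoters in the table. Another was the HIF core, spelled ACGTG and contained in the E-box, found in 19.6% of promoters. The last was a motif of the endothelial and blood factors of the GATA family, spelled AGATAA, found in 11.2% of promoters. The GC content was 70.3% for F3, 58.3% for Procr and 59.3% for Plaur, with a median of 52.7% over all promoters. The F8 window held no match to any of the 7 motifs. It lies at chrX:75379992-75380291 on the - strand, inside the gene, and does not cover the annotated gene start at 75382615. Of the Tfpi windows, one held 2 ETS matches and 1 GATA match, and the other 1 ETS match, 1 E-box and 2 HIF matches, and neither held AP-1. Such matches describe letters only.

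Vwf (chr6:125546774-125686679, + strand; gene positions are on GRCm38) was the most abundant member in the lining, ranking 7th to 9th of all genes by count in the flushed controls. It had 4945, 4900.3, 6158 and 6195 CPM in flushed controls 1 to 4, with 4809.8, 4564, 4625 and 4863 in endothelial knockouts 1 to 4. In the left-over fraction it had 177 and 271 CPM in the libraries labelled control and 125, 80.5, 59.3 and 163 in those labelled knockout. Every flushed library lay far above every left-over library. The log2 fold change between the control groups was 4.56 (SE 0.24, edgeR adjusted p = 7.8e-07), and left-over labelled controls held 4.04% of the flushed control level. The 10 endothelial markers summed to 6.06% by the same measure. Whether endothelial cells that stayed in the left-over artery account for its Vwf was not tested.

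F8 (chrX:75172715-75382615, - strand), the gene of the factor that von Willebrand factor carries, was low in both fractions, with 34 to 170 counts per library. Flushed controls had 6.40, 8.29, 6.61 and 8.17 CPM and endothelial knockouts 4.54, 6.47, 8.62 and 4.50. Left-over libraries had 3.23 and 1.91 CPM (labelled control) and 2.27, 2.10, 1.75 and 1.77 (labelled knockout). All flushed values lay above all left-over values. The difference between the control groups was 1.45 on the log2 scale (SE 0.27, edgeR adjusted p = 0.00151). Per kilobase of gene length, Vwf was 655 to 1032 times F8 in flushed controls and 60.7 to 157 times F8 in left-over labelled controls. F8 overlaps Fundc2 and a pair of pseudogenes in GENCODE M21, with no exon base in common.

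F3 (chr3:121723537-121735052, + strand) showed the opposite order and the largest difference among the members. Tissue factor RNA was 8.12, 8.67, 14.5 and 14.1 CPM in flushed controls 1 to 4, against 1048 and 786 in the left-over labelled controls and 364, 377, 874 and 542 in the labelled knockouts. Endothelial knockouts had 45.4, 2.44, 2.33 and 6.27 CPM, so every left-over value lay far above every flushed value. Means differed 80.8-fold between the control groups (log2 fold change -6.41, SE 0.28, edgeR adjusted p = 1.3e-06) and 47.5-fold against the left-over labelled knockouts. Flushed controls held 1.24% of the left-over labelled control level of F3, compared with 6.52% for the summed fibroblast markers, 4.93% for 10 smooth muscle contractile genes and 4.04% for 9 macrophage markers. How much of the flushed F3 came from such cells was not tested.

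Tfpi (chr2:84432855-84476775, - strand), the inhibitor of tissue factor, differed much less between the fractions. It had 18.4, 16.6, 27.2 and 21.4 CPM in flushed controls and 26.2, 18.3, 17.1 and 18.9 in endothelial knockouts. Left-over libraries had 35.8 and 28.4 CPM (labelled control) and 27.1, 23.1, 34.7 and 24.2 (labelled knockout). The control groups did not overlap, although flushed control 3 lay close to left-over labelled control 2, and the labelled knockouts overlapped the flushed controls. The log2 fold change was -0.69 (SE 0.19, edgeR adjusted p = 0.0111). Without left-over labelled control 1 it was -0.50. With the 3 flushed controls and 3 labelled knockouts of shared code number, fitted as pairs, it was -0.36 (edgeR adjusted p = 0.111), uncalled. Unpaired, a setting added after seeing the data, it was -0.33 (edgeR adjusted p = 0.143), also uncalled. Per length, the ratio of F3 to Tfpi was 0.932 to 1.39 in flushed controls and 58.6 to 61.9 in left-over labelled controls.

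Thbd (chr2:148404466-148408188, - strand, a single exon) and Procr (chr2:155751117-155755471, + strand), the thrombomodulin and protein C receptor genes, were both higher in the flushed fraction. Thbd had 1477, 1243, 1348 and 1209.7 CPM in flushed controls and 890.3, 1591, 1376 and 1357 in endothelial knockouts, against 485 and 260.1 in left-over labelled controls and 296, 365, 405 and 362 in labelled knockouts. Procr had 609, 460.4, 458 and 452 CPM in flushed controls, 392, 543, 525 and 524 in endothelial knockouts, 101 and 121 in left-over labelled controls and 101, 107, 114 and 119 in labelled knockouts. Neither gene overlapped between the fractions. The log2 fold changes between control groups were 1.76 for Thbd (SE 0.24, edgeR adjusted p = 2.8e-04) and 2.09 for Procr (SE 0.17, edgeR adjusted p = 8.0e-06). Left-over labelled controls held 28.2% of the flushed control level of Thbd and 22.4% of Procr, larger shares than the 4.04% of Vwf and the 6.06% of the endothelial markers. In labelled knockouts the shares were 27.0% and 22.2%, with 1.93% for Vwf and 3.23% for the endothelial markers. Per length, Thbd was 43.2 to 91.6 times F3 in flushed controls and 0.167 to 0.233 of F3 in left-over labelled controls.

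Plaur (chr7:24462500-24475873, + strand), the urokinase receptor gene, was also a gene of the flushed fraction. It had 197, 143, 156 and 104 CPM in flushed controls and 88.7, 145, 155 and 113 in endothelial knockouts. Left-over values were 19.8 and 22.6 CPM (labelled control) and 27.0, 17.3, 18.1 and 27.6 (labelled knockout). The fractions did not overlap, and the log2 fold change was 2.75 (SE 0.27, edgeR adjusted p = 9.0e-05). Its ligand gene Plau was near the limit of detection everywhere, with 11 to 41 counts per library.

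Plau (chr14:20836662-20843388, + strand) had 0.777 to 1.10 CPM in flushed controls, 0.611 to 1.04 in endothelial knockouts, 0.831 and 1.25 in left-over labelled controls and 1.18 to 1.81 in labelled knockouts. Its control groups overlapped, with a log2 fold change of -0.21 (SE 0.42, edgeR adjusted p = 0.669), and the 4 labelled knockouts lay above all 8 flushed libraries. Plat (chr8:22757744-22782847, + strand), the tissue plasminogen activator gene, was abundant in both fractions, with 322, 293, 443 and 296 CPM in flushed controls and 321 and 222 in left-over labelled controls. Endothelial knockouts had 327, 243, 335 and 461 CPM and labelled knockouts 226, 218, 347 and 271, so that all 4 groups of Plat overlapped. Its log2 fold change was 0.25 (SE 0.21, edgeR adjusted p = 0.307), but it turned to -0.08 with library size scaling. Plat was called at 0.48 (edgeR adjusted p = 0.0284) with the 3 flushed controls and 3 labelled knockouts of shared code number, fitted as pairs. Unpaired, a setting added after seeing the data, it was called at 0.50 (edgeR adjusted p = 0.023).

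The order of abundance of the members themselves differed between the fractions, on the scale of CPM per kilobase of gene length. In flushed controls Vwf led at 628 ± 82.0 (SD, n = 4), followed by Thbd (354 ± 32.4), Procr (308 ± 47.3), Plat (134 ± 28.1) and Plaur (107 ± 27.4). F3 was at 6.05 ± 1.82 CPM per kilobase there, Tfpi at 5.27 ± 1.17, F8 at 0.753 ± 0.102 and Plau at 0.403 ± 0.0636. In left-over labelled controls F3 led at 489 ± 98.8 (SD, n = 2), ahead of Plat (107 ± 27.7), Thbd (100.1 ± 42.7), Procr (68.9 ± 8.87) and Vwf (25.4 ± 7.49). Plat and Thbd, and Thbd and Procr, differed by less than their summed SDs there, while F3 stood above Plat, and Procr above Vwf, by more. In flushed controls Thbd and Procr, Plat and Plaur, and F3 and Tfpi differed by less than their summed SDs. Across the 4 groups, the step that exceeded the summed SDs lay between the fractions for Vwf, F8, F3, Thbd, Procr and Plaur. For Vwf a further step separated the left-over groups, and for Tfpi, Plat and Plau no neighbouring groups differed beyond their spread.

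**Figure D2:**
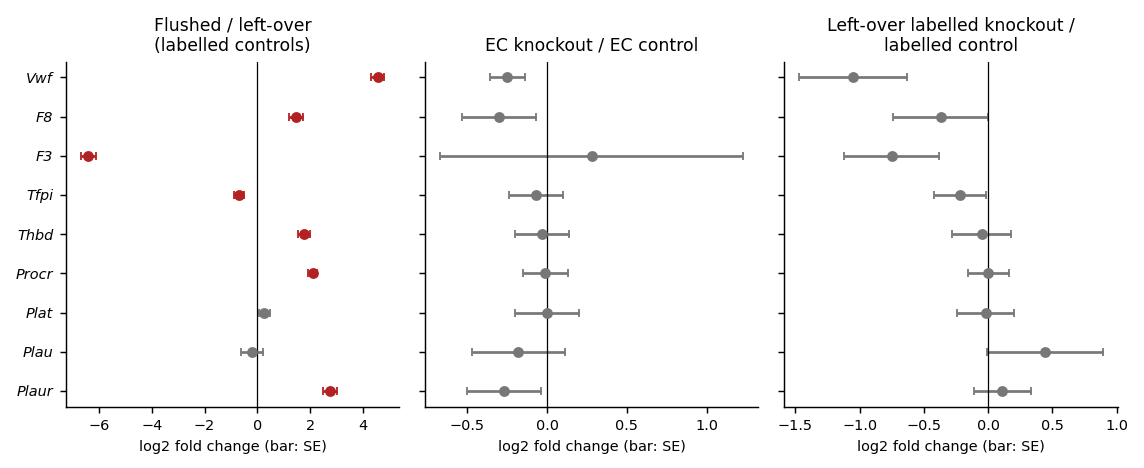
Log2 fold change (point) and standard error (bar) of the 9 genes in the fraction comparison, the endothelial knockout comparison and the left-over comparison as labelled, each fitted alone by edgeR; red marks genes called at an adjusted p under 0.05. The fraction comparison has 7 red genes, the largest being F3 at -6.41, and the other comparisons have 0.

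The endothelial knockout comparison asked which RNAs differed in the lining when Poldip2 was deleted in endothelium. None of the 9 members was called, and neither was any of the 14800 genes tested (0%). DESeq2 called 68 genes (0.462%) and no member, giving no adjusted p for F3 and Plau. The authors' deposited table called 56 genes (0.378%) and no member. Thbd, Procr and Plat were close to level, with log2 fold changes of -0.03 (SE 0.17), -0.01 (SE 0.14) and 0.00 (SE 0.20). Tfpi was at -0.07 (SE 0.17), Plau at -0.18 (SE 0.29), Plaur at -0.27 (SE 0.23) and F8 at -0.30 (SE 0.23). With the fibroblast marker score as a covariate, Thbd was at -0.38 (SE 0.14, edgeR adjusted p = 0.24), Procr at -0.25 (SE 0.13), Plaur at -0.59 (SE 0.27) and F8 at -0.62 (SE 0.25), none of them called. That score was 6.17 to 7.35 in controls, 7.20 in knockout 1 and 4.37 to 4.87 in knockouts 2 to 4. Score and genotype are therefore hard to tell apart without knockout 1. With the clock score as covariate, these were 0.15 (Thbd), 0.17 (Procr), 0.05 (Plaur) and -0.19 (F8), also uncalled.

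Vwf was lower in all 4 endothelial knockouts (4564 to 4863 CPM) than in all 4 flushed controls (4900.3 to 6195), by 0.25 on the log2 scale (SE 0.11). The unadjusted p was 0.0408 and the edgeR adjusted p 0.79, and 0.325 with DESeq2. Of all genes tested, 3.83% had no overlap between these groups and 917 (6.2%) had an unadjusted p under 0.05. The lowest control and the highest knockout lay close together. Summed endothelial markers ran from 11415 to 13056 CPM in controls and from 12459 to 13557 in knockouts, overlapping. The authors' deposited table gave -0.22 for Vwf, with an adjusted p of 0.640.

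F3 split the endothelial knockouts. Knockout 1 had 45.4 CPM, above every control (8.12 to 14.5), and knockouts 2 to 4 had 2.44, 2.33 and 6.27, below every control. With all 8 libraries the log2 fold change was 0.28 (SE 0.95, edgeR adjusted p = 0.981), and without knockout 1 it was -1.63 (adjusted p = 0.205), so that 1 library set its direction. Without flushed control 3 and knockout 1 together, a setting chosen after seeing the data, it was -1.50 (SE 0.42, adjusted p = 0.342). With all 8 libraries and the fibroblast marker score as a covariate, the F3 fold change was 0.94 (SE 0.35, edgeR adjusted p = 0.249). That is the direction of the 8-library fit without the covariate and opposite to the fits that leave libraries out. Fibroblast markers moved with F3 in the knockouts, though control 3 had more of them and less F3 than knockout 1: their summed CPM was 2794 in knockout 1, 476, 495 and 704 in knockouts 2 to 4, and 1486, 1423, 3154 and 1716 in controls 1 to 4. Macrophage markers were 893 CPM in knockout 1 and 30.4, 69.9 and 67.7 in the others. The part of these other cells in the F3 values was not tested. Knockout 1 was also the lowest knockout for Thbd (890.3), Procr (392) and Plaur (88.7), and the highest for Poldip2 (36.5 CPM).

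**Figure D3:**
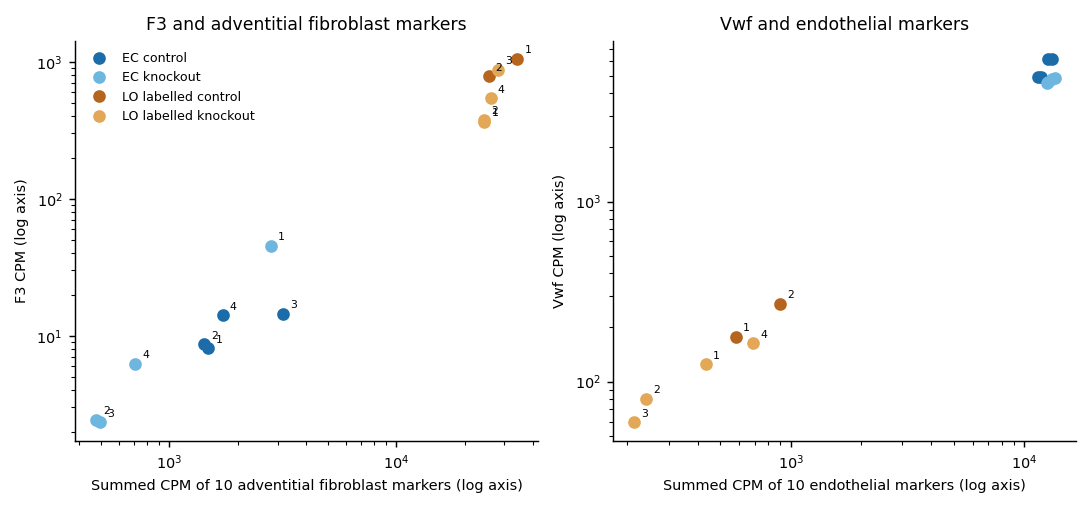
Left, F3 against the summed CPM of 10 adventitial fibroblast markers; right, Vwf against that of 10 endothelial markers; all axes are log, each point is a library and small numbers give the replicate (omitted for the crowded flushed libraries on the right). Endothelial knockout 1 is the flushed library with the most F3 (45.4 CPM), and the left-over libraries with the least endothelial marker RNA, labelled knockouts 2 and 3, have the least Vwf (80.5 and 59.3 CPM).

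The left-over comparison was meant for deletion in smooth muscle and is given as labelled. Of the 9 members 0 were called, with 162 of 20442 genes (0.792%) called overall; 1 member, Vwf, had an unadjusted p under 0.05, as did 10.4% of all genes. DESeq2 called 2.13% of genes and 0 members, with no adjusted p for F8 and Plau. Procr (0.00, SE 0.16), Plat (-0.02, SE 0.22) and Thbd (-0.05, SE 0.23) were again near level in log2 fold change. Plaur was at 0.11 (SE 0.22), Tfpi at -0.22 (SE 0.20), F8 at -0.37 (SE 0.37) and Plau at 0.44 (SE 0.45).

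Vwf was 1.05 lower on the log2 scale in the labelled knockouts (SE 0.42, edgeR adjusted p = 0.474), and its groups, 177 and 271 against 59.3 to 163 CPM, did not overlap; 21.3% of all genes had no overlap here. Endothelial markers moved with it: 9 of 10 had a negative fold change and 0 were called, the median was -0.64, and the summed CPM was 583 and 898 in labelled controls and 433, 239, 214 and 691 in labelled knockouts. Their part in the Vwf difference was not tested. F3 had a log2 fold change of -0.75 (SE 0.37, edgeR adjusted p = 0.564). Labelled knockout 3 (874 CPM) lay among the labelled controls for F3, and without it the fold change was -1.09 (adjusted p = 0.0417).

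The left-over groups also differed in clock genes. Summed CPM of 9 clock output genes was 531 and 979 in labelled controls and 149 to 204 in labelled knockouts, without overlap. For the members, effects of the labelled genotype and of clock phase cannot be told apart in these 6 libraries. In the flushed fraction the same sum ran from 871 to 1459.5 CPM in controls and from 1273 to 1606 in knockouts. In the authors' deposited table, the smooth muscle control mean is that of the 4 libraries labelled knockout but the knockout mean is not that of the 2 libraries labelled control, so its comparison is of unlike groups. There the log2 fold change of its knockout group was 0.59 for Vwf (adjusted p = 0.137) and 0.37 for F3 (adjusted p = 0.587), and no member was called while 3.68% of genes were. Poldip2 was at -1.25 there (the authors' adjusted p = 6.7e-09), against 1.29 for the left-over groups as labelled.

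Whether the labelled knockout effects differed between the fractions was tested in 1 model of all 14 libraries. None of the 9 members was called (55 of 21464 genes, 0.256%, were), and none had an unadjusted p under 0.05, against 12.8% of all genes. F3 differed by -1.08 (SE 1.29, edgeR adjusted p = 0.773), but by 0.90 without endothelial knockout 1, so that 1 library set its direction. Vwf differed by -0.83 (SE 0.39, edgeR adjusted p = 0.392), and by -0.50 without left-over labelled control 2. Poldip2, the deleted gene, differed by 2.15 (SE 0.26, edgeR adjusted p = 0.00175).

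Other genes of the pathway came from a list of 55, of which 41 could be tested between the fractions and 32 were called, 15 higher and 17 lower in the flushed fraction (median log2 fold change -0.56). Over all genes 65.7% were called, 34.6% higher and 31.1% lower, and the counts by role that follow are a description beside those shares. The 3 tested protease-activated receptors, through which thrombin and related proteases signal to cells, were all higher. F2rl1 had a log2 fold change of 4.98 (edgeR adjusted p = 1.6e-04), F2r one of 3.10 with 654 ± 30.6 CPM (SD, n = 4) against 72.6 ± 4.87 (SD, n = 2), and F2rl3, at 0 to 27 counts per library, one of 2.71, called in 11 of 16 alternatives. Of 9 tested inhibitors and platelet brakes, 3 were higher in the flushed fraction and 2 lower. Nt5e (3.47) and Entpd1 (2.16), ectoenzymes that break down released nucleotides, and Pros1 (1.46), the cofactor protein S, were higher. Serpina5, the protein C inhibitor, was lower at -3.05, on 0 to 20 counts per library, and was called in 11 of 13 alternatives.

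Of 8 tested coagulation factors and cofactors, 6 were lower and 1, F5, was higher. F5, the cofactor of activated factor X, had 33.1 ± 12.2 CPM (SD, n = 4) in flushed controls against 6.58 ± 1.28 (SD, n = 2), a log2 fold change of 2.26. F13a1, a fibrin cross-linking subunit also known as a macrophage gene, was at -4.74. Macrophage markers were called lower in 9 of 9. So were 10 of 10 smooth muscle, 10 of 10 fibroblast and 8 of 8 adipocyte markers, while 10 of 10 endothelial markers were higher. The source of the F13a1 RNA was not tested. Fga, a fibrinogen chain, and Kng1, a kininogen, were lower at edgeR adjusted p of 0.0397 and 0.0306, with mean levels of at most 2.59 CPM in any group, and their calls held in 7 of 15 and 10 of 16 alternatives.

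Of 10 tested fibrinolysis genes 7 were lower in the flushed fraction and 1 was higher. Serpine2, protease nexin 1, which inhibits thrombin and plasminogen activators, had 5.78 ± 1.63 CPM (SD, n = 4) in flushed controls against 282 ± 14.8 (SD, n = 2), a log2 fold change of -5.68 (edgeR adjusted p = 4.3e-07). Serping1, the C1 inhibitor, was at -3.64, Masp1, a complement protease, at -3.33 and Cpb2, which shields fibrin from plasmin, at -2.59 on 0 to 26 counts per library, called in 13 of 16 alternatives.

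Of 11 tested genes for making, storing and clearing these proteins, 7 were higher and 2 lower. Mmrn2, an endothelial multimerin, was at 4.31, Selp, the P-selectin stored with von Willebrand factor, at 4.21, and Rab27a, a GTPase of those storage granules, at 2.43. Angpt2, also stored in the granules, was lower at -1.72. Of the 55 genes, 31 were tested between endothelial knockouts and controls and 48 between the left-over groups, and 0 were called in either comparison. The smallest edgeR adjusted p was 0.417, for the clearance receptor gene Lrp1 in the endothelial comparison (-1.38, SE 0.26), and 0.278, for S100a10 in the left-over one (0.47, SE 0.16). Lrp1 had 46.8, 40.7, 81.9 and 48.9 CPM in flushed controls 1 to 4 and 223 and 166 in left-over labelled controls. Endothelial knockouts 1 to 4 had 30.3, 16.9, 16.3 and 21.1 CPM. The part of other cells in its flushed values was not tested.

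**Figure D4:**
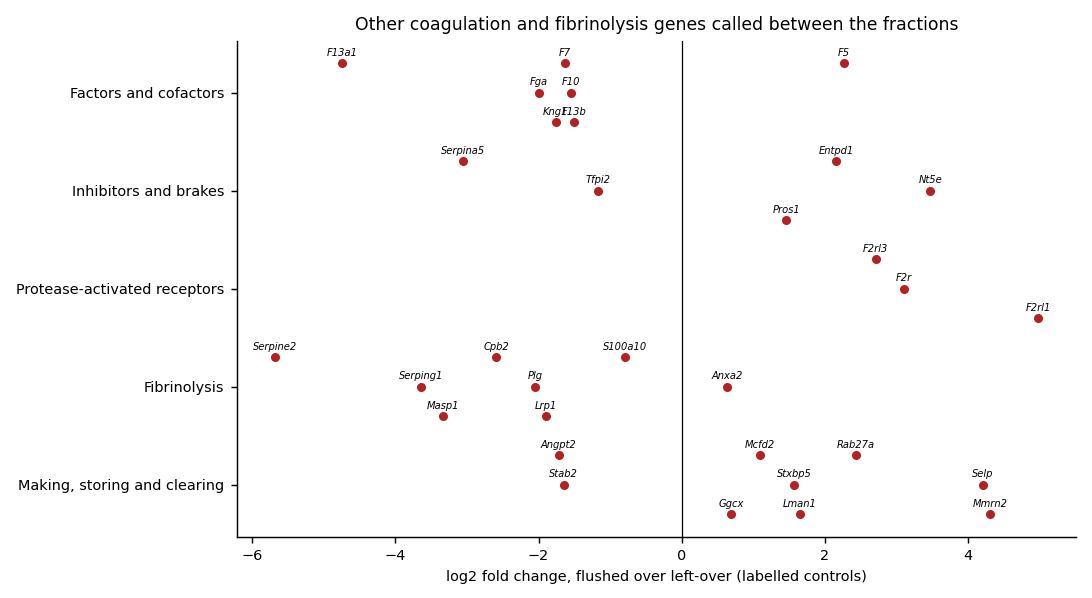
Log2 fold change of the 32 called pathway genes (edgeR adjusted p under 0.05) in flushed controls over left-over labelled controls, one point per gene in 5 role groups; vertical offsets within a group carry no value. The protease-activated receptors lie on the flushed side (2.71 to 4.98) and 7 of 8 called fibrinolysis genes on the left-over side, down to Serpine2 at -5.68.

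Genes with the most similar pattern were sought among 14738 genes as the smallest root mean square difference of mean-centred log2 CPM over the 14 libraries, which share 2 fractions. Nearest to Vwf were Mmrn2 (0.194), Notch4 (0.197) and Ptprb (0.207). Nearest to F3, and less close, were Wisp2 (0.490), Fbln7 (0.501) and Kcnj8 (0.514). Thbd was nearest to Kbtbd7 (0.177), Rexo1 (0.187) and Phactr4 (0.209), Procr to Qsox2 (0.132), Ccnl1 (0.146) and Rab11a (0.147), and Plaur to Cttnbp2nl (0.212), Azin1 (0.217) and Gramd4 (0.230). For F8 they were Stxbp5 (0.214), Ror2 (0.216) and Dot1l (0.230), and for Tfpi Add3 (0.135), Ivd (0.147) and Mocs2 (0.148). Plat had Slc44a1 (0.170), Eif4e3 (0.190) and Kctd7 (0.190), and Plau had Alox12 (0.130), Rps13-ps2 (0.144) and Rps10 (0.149). Among the members, Thbd and Procr were 0.284 apart and Procr and Plaur 0.340, while Vwf and F3 were 5.78 apart.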

How the data were processed

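The authors deposited 1 table, holding read counts of each gene in each library, not normalized. Its upstream steps are known from the submitters' processing notes alone, which list HTSeq 0.6.1, STAR 2.5, STAR-Fusion, TopHat, edgeR 3.16.5 and DESeq2 without saying what each did. These notes name mm9, whereas 97.6% of the 34490 identifiers found in GENCODE M21 (GRCm38) start within 5 kb of that annotation, so coordinates are given on GRCm38. Whether counting used strand was not stated. The authors also deposited FPKM values, scaled to gene length and library total, group means of FPKM, log2 fold changes, and p-values with adjusted p-values; the tool behind these is not stated. Gene length in bases came from the same table. Counts were used for every test made here; the deposited FPKM served as an alternative level and to check which libraries each group mean holds.

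Genes passed filterByExpr (minimum count 10, minimum total 15), counts were scaled by TMM, and groups were compared with edgeR 4.0.16 (glmQLFTest, two-sided, robust fit; limma 3.58.1, R 4.3.3), Benjamini-Hochberg adjusted over all genes tested; all 9 members passed the filter in every comparison. DESeq2 1.42.0 was an alternative. The edgeR step was tested on simulated counts. Levels are CPM on TMM library sizes over the 14 libraries; list scores used log2 CPM with a prior count of 2. A count of 0 allows 3 counts at 95% confidence, for counting error only. Group means in the order of levels were taken as different beyond their spread when their gap exceeded the sum of their SDs.

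Named pathway genes were the called genes with the 4 largest absolute fold changes in each role group; Adgre1, a listed macrophage marker, was not analysed here. Members, gene lists and tests were chosen with earlier results of these data known. Alternatives were other scaling, filters, tools, sets of libraries, covariates and omission of each library.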

Additional observations from a re-analysis of the deposited data

Results flagged for a closer look

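Among 87 groups of 4 libraries checked over the members, Poldip2 and the named pathway genes, 8 had a library set far apart from the other 3 by Dixon's criterion (the gap to the nearest library set against the whole range), which chance gives in about 1 in 20 groups. Endothelial knockout 1 accounted for 4 of the 8: it was high in F3 (45.4 CPM), F13a1 (162 CPM) and Serping1 (425 CPM) and low in Procr (392 CPM). That library was also the endothelial knockout with the most fibroblast, macrophage and platelet marker RNA and the most Poldip2 (36.5 CPM). Its clock score, 2.29, was the highest of the flushed libraries. The part of other cells, of remaining Poldip2 or of clock phase in these values was not tested. Flushed control 1 was high in Procr (609 CPM). Flushed control 3 was high in Masp1 (1.94 CPM), flushed control 4 was low in Angpt2 (3.75 CPM), and endothelial knockout 4 was high in Entpd1 (708 CPM).

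The labelled knockout effect on Poldip2 differed between the fractions by 2.15 on the log2 scale (edgeR interaction test, adjusted p = 0.00175), since Poldip2 was lower in the endothelial knockouts and higher in the left-over libraries labelled knockout.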

How the results depend on the processing

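Between the fractions, Vwf, F8, Thbd, Procr, Plaur and F3 kept their direction and their call in each of the 17 alternatives, and Tfpi kept its direction in all 17 and its call in 14. The number of members called stayed at 6 or 7 when 1 library was left out, and all genes called ran from 9098 to 12744. With other left-over libraries, Poldip2 turned from 0.89 to -0.40 with the labelled knockouts, -0.07 with all 6 left-over libraries, and -0.42 with the replicate block of code number pairs (-0.43 without it, an alternative chosen after seeing the data); these settings bring in the libraries labelled knockout. Plat turned to -0.08 with library size scaling, and Plau ran from -0.46 to 0.15 over omissions.

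In the endothelial comparison 0 members were called in every alternative. All genes called rose from 0 to 4 with all 14 libraries in one model, 2 with the clock score as covariate, 14 without a filter, 68 with DESeq2, 118 with the fibroblast score as covariate and 97 without the 2 libraries highest in fibroblast markers (chosen after seeing the data), and ran from 0 to 20 over omissions. Fold changes of uncalled members turned sign: F3 to -1.79 with the clock score, -0.91 with the replicate block and -1.50 without those 2 libraries, Tfpi to 0.23 with the fibroblast score, Thbd to 0.15 (clock score), 0.01 (no filter) and 0.12 (without the 2 libraries), Procr to 0.17, 0.03 and 0.05 in the same settings, and Plaur to 0.05 (clock score). Over omissions F3 ran from -1.63 to 0.64, Tfpi from -0.21 to 0.07, Thbd from -0.14 to 0.12 and Procr from -0.06 to 0.11.

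In the left-over comparison the replicate block called 1 member, F3 (-1.31, adjusted p = 0.00316), and 2015 genes in all, against 162; DESeq2 called 436 and no filter 397, and omissions gave 41 to 260 genes and 0 or 1 member. Thbd turned to 0.01 and Plat to 0.03 with library size scaling, and Plat to 0.01 with mean CPM of at least 1. Omissions took F8 from -0.72 to 0.06, Thbd from -0.44 to 0.48, Plat from -0.26 to 0.28 and Plaur from -0.02 to 0.23. For the difference between fractions, 55 genes became 438 with DESeq2, 84 with mean CPM of at least 1 and 19 with the replicate block, and 7 to 131 over omissions. Thbd turned to 0.03, Procr to 0.04 and Plat to 0.01 with library size scaling, and Procr to 0.03 with mean CPM of at least 1. Omissions took F8 from -0.43 to 0.33, F3 from -1.43 to 0.90, Thbd from -0.43 to 0.47, Procr from -0.14 to 0.12 and Plat from -0.29 to 0.24. Deviations from group means of same-numbered libraries correlated between -0.328 and 0.316. Those of the 3 code number pairs correlated between -0.098 and 0.241. With few pairs, from different groups or fractions, these values cannot decide whether a shared number means a shared animal. The cause of these shifts was not tested.

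Counts of 11 to 41 for Plau and 34 to 170 for F8 limit what could be seen for them, and the left-over side of the main fraction comparison rests on 2 libraries. Where an omission leaves 1 library in a group, that library is assumed to vary like the others.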

Other observations

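Some partner proteins outside the naming rule, picked after their values were seen, differed together or apart between the fractions. Lman1 and Mcfd2, which form the cargo receptor that carries factor V and factor VIII out of the endoplasmic reticulum, were both higher in flushed controls, at log2 fold changes of 1.65 (edgeR adjusted p = 2.0e-05) and 1.09 (edgeR adjusted p = 5.2e-05), alongside F8 and F5. Anxa2 and S100a10, whose proteins form a surface complex that binds plasminogen and Plat, went apart, at 0.63 (edgeR adjusted p = 0.00333, called in 12 of 17 alternatives) and -0.79 (edgeR adjusted p = 2.0e-04). Of all 18484 genes tested, 65.7% were called.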
